A study of Mus musculus with 36 samples.

Results

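Collagen chain genes encode the alpha chains from which collagen molecules are wound. They were taken as the protein-coding genes whose symbol is Col, a number, the letter a and a number, which gave 44 genes of 30205 summed in all, 21556 of them protein-coding. By the assembly their products form, 11 encode fibrillar chains, 9 network chains, 6 beaded-filament chains, 9 FACIT chains (fibril-associated collagens with interrupted triple helices), 4 transmembrane chains, 2 multiplexin chains and 3 other chains. The 36 RNA-seq libraries came from bone cells of 20-week-old mice, 6 libraries in each of 6 groups. Bone marrow macrophages (BMM) were expanded from marrow with M-CSF at 100 ng/mL for 3 days and then kept with M-CSF at 30 ng/mL for 5 days, as a group of wild-type mice (WT BMM) and a group of mice lacking the microRNA gene Mir324 (null BMM). The osteoclast cultures (WT OC and null OC) had the same origin and expansion and received RANK-L at 50 ng/mL beside M-CSF at 30 ng/mL for 5 days. The osteoblast cultures (WT OB and null OB) grew out of collagenase-digested bone chips over about 6 weeks and were then kept for 18 days with 2 mM beta-glycerophosphate and 50 µg/mL ascorbic acid. The labels name no strain or sex and do not say whether the libraries of a group come from separate mice, so p-values measure the spread between these libraries. The level of Mir324 was not analysed here, and the genotype labels were not checked against it.

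Collagen is the main protein of bone matrix. Type I collagen, made of Col1a1 and Col1a2 chains, forms the fibrils that osteoblasts lay down and that are then mineralised. Type III and type V chains join these fibrils and bear on their width, FACIT chains bind to fibril surfaces, type IV chains form the sheets of basement membranes, and type VI chains form beaded filaments around cells. Types II, IX and XI are the fibril chains of cartilage, and type X marks cartilage cells that have enlarged before bone replaces them. Chains are hydroxylated, with ascorbic acid as a cofactor, and are wound and checked in the endoplasmic reticulum. They are trimmed and crosslinked outside the cell.

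The libraries held 14118972 to 26347581 estimated counts each. Levels are given as CPM, counts brought to a common library size with TMM scaling, or as TPM, which also corrects for transcript length. TPM is used for the order, shares and ratios of chains. Marker sums, and some remarks on which gene is higher, are in CPM and are not corrected for length. The libraries labelled null OC lacked most osteoclast transcripts: 10 osteoclast markers summed to 424 to 773 CPM there, against 30441 to 32644 CPM in WT OC and 220 to 245 CPM in WT BMM, while 12 macrophage markers had a median sum of 16848 CPM in null OC and 7000 CPM in WT OC. Each result for null OC is therefore given as one of the libraries labelled null OC. The OB cultures held other cells too, with median sums of 4907 CPM of osteoclast markers and 6178 CPM of macrophage markers in WT OB, and 5845 and 4116 CPM in null OB. In such bulk libraries, fewer cells of a type and less RNA per cell cannot be told apart.

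Collagen transcripts belonged to the osteoblast cultures. The 44 genes together made up a median of 18012 TPM in WT OB, ranging from 16935 to 23660 TPM, against 38.9 to 43.0 TPM in WT BMM and 77.3 to 101 TPM in WT OC. In WT OB the order by mean TPM was Col1a1 (9099), Col3a1 (3974), Col1a2 (3135), Col8a1 (647), Col6a1 (591), Col5a2 (373), Col12a1 (304), Col6a2 (271), Col5a1 (224) and Col11a1 (77.1). The place of Col3a1 above Col1a2 rests on Col3a1-205, a transcript of 737 bases with a median of 29.8% of Col3a1 TPM. In OB 95.9% of Col3a1 counts were on Col3a1-201, which had a median of 2801 TPM in WT OB, against 2927 TPM for Col1a2. In CPM Col1a2 had the higher mean in WT OB, 11125 against 10732 CPM. Col12a1 likewise had a median of 65.0% of its TPM on Col12a1-204, of 1784 bases. Fibrillar chains held a median of 88.3% of all collagen TPM in WT OB, beaded chains 4.85%, network chains 4.32%, FACIT chains 2.14% and multiplexin chains 0.410%. In WT BMM the make-up was different at a far lower level, with 46.2% from network chains, 23.8% from multiplexin chains and 13.8% from fibrillar chains. In WT OC network and multiplexin chains were also the largest classes, with 50.3% from network chains, 35.2% from multiplexin chains and 6.96% from fibrillar chains. The network chains behind these shares differed in part between the 2 cultures. Col4a1, Col4a2 and Col4a5 held 6.38%, 10.7% and 9.85% of collagen TPM in WT OC. Their mean levels there were 23.6, 38.4 and 31.8 CPM, against 0.818, 2.34 and 3.69 CPM in WT BMM. A caution applies to the network share, since in the macrophage cultures much of it is Col4a3, whose counts are uncertain for the reason given with that gene.

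The chief comparison asked how collagen expression differs in osteoblast cultures without miR-324. Collagen chain transcripts were higher in null OB as a group: of 38 chains tested, 28 rose, none fell and 10 did not pass the threshold (edgeR quasi-likelihood test, Benjamini-Hochberg adjusted p of 0.05 over all 13607 genes). Of all genes tested, 15.5% rose and 16.9% fell in this comparison, 32.5% in all. The median log2 fold change of the 38 chains was 0.68, and of all genes tested 0.00. In 17 of the 38 chains every null OB library lay above every WT OB library, against 6.68% of all genes tested, and in no chain was every null library lower. The 6 chains not tested were Col4a6, Col6a4, Col6a5, Col6a6, Col17a1 and Col25a1, which were too low in these cultures for the filter. In TPM the summed collagen level was 34339 ± 2052 in null OB against 19204 ± 2568 in WT OB (SD, n = 6), a ratio of 1.79, and in CPM the ratio was 1.62. The median of all genes tested was itself shifted by 0.18 on the log2 scale in TPM and by 0.01 in CPM, so the larger ratio includes that shift.

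**Figure D1:**
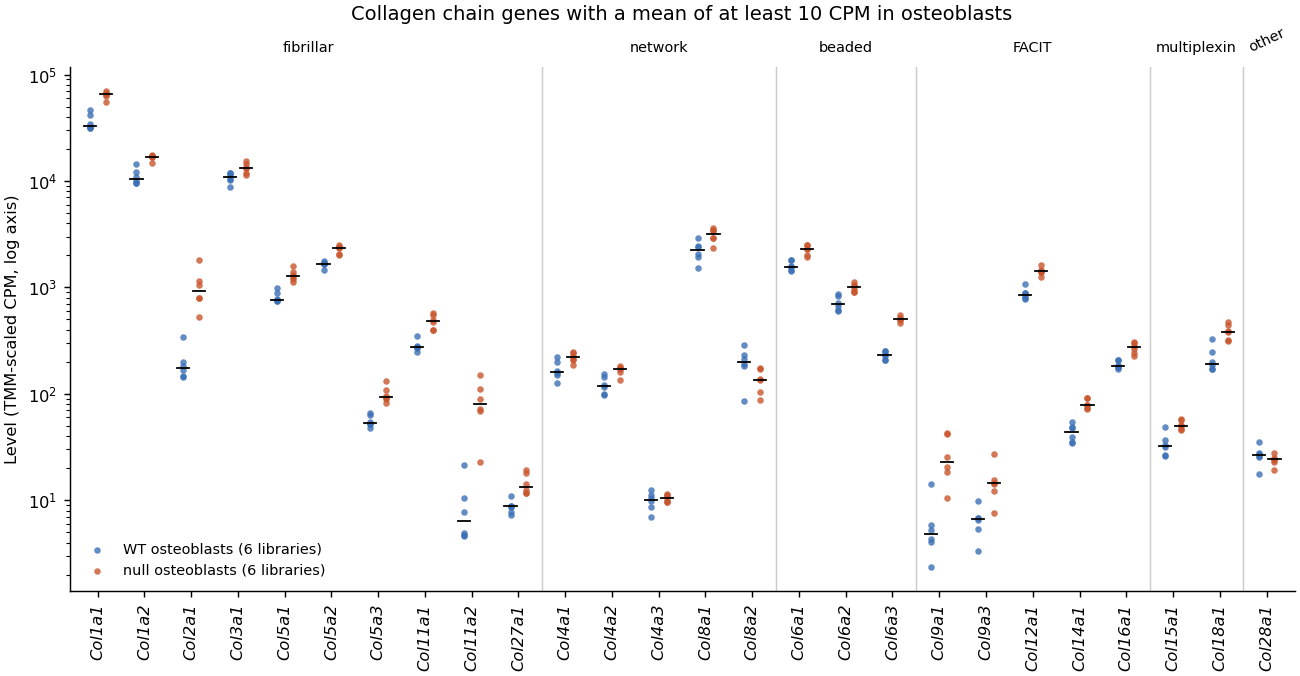
CPM on a log axis of the 26 collagen chains with a mean of at least 10 CPM in OB, by class, each point 1 library (6 WT OB, 6 null OB) with a bar at the median. Col1a1, Col1a2, Col5a1, Col6a3, Col12a1 and Col14a1 show no overlap between genotypes, whereas Col3a1 and Col8a2 overlap.

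Of the 11 fibrillar chains 10 rose in null OB, with a median log2 fold change of 0.73. Col1a1 (chromosome 11, 94936224 to 94953042, plus strand, GRCm38), the major chain of bone collagen, had 31268, 33147 and 46068 CPM as the lowest, median and highest of the WT OB libraries and 54691, 65749 and 69883 CPM in null OB. The lowest null library was above the highest WT library, and the log2 fold change was 0.83 (adjusted p 5.56e-05, SE 0.10). Col1a2 (chromosome 6, 4504814 to 4541544), the partner chain of type I collagen, had 9553, 10494 and 14413 CPM in WT OB and 14721, 16991 and 17585 CPM in null OB, again without overlap, at 0.58 (adjusted p 3.65e-04, SE 0.10). In a fit of all 36 libraries Col1a1 kept its call and Col1a2 did not (adjusted p 0.109). Type I chains together held 63.2% of collagen TPM in WT OB and 68.9% in null OB by the median. Col3a1, the chain of the type III collagen of soft connective tissue, rose less, from 8877, 10886 and 11820 CPM to 11450, 13345 and 15561 CPM, with overlapping groups and a log2 fold change of 0.30 (adjusted p 0.0188, SE 0.09), and did not pass in the fit of all 36 libraries (adjusted p 0.523). Its share of collagen TPM was 20.7% in WT OB and 16.0% in null OB.

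The 3 type V chains, which help to start type I fibrils, rose. Col5a1 had 742, 766 and 982 CPM in WT OB and 1125, 1287 and 1586 CPM in null OB, with a log2 fold change of 0.68 (SE 0.09). Col5a2 had 1456, 1669 and 1773 CPM in WT OB and 2031, 2369 and 2492 CPM in null OB, at 0.47 (SE 0.07). Col5a3 was far lower, with 47.5, 53.1 and 66.2 CPM in WT OB against 82.8, 93.7 and 131 CPM in null OB, at 0.83 (SE 0.11). None of the type V chains overlapped between genotypes, though Col5a1 missed the threshold in the fit of all 36 libraries (adjusted p 0.0549). Col11a1, whose chain also combines with type V chains outside cartilage, went from 248, 276 and 346 CPM to 395, 483 and 581 CPM, at 0.76 (adjusted p 9.44e-05, SE 0.10). Col27a1, a minor fibrillar chain, had 7.19, 8.73 and 11 CPM in WT OB and 11.6, 13.3 and 19.2 CPM in null OB, at 0.73 (adjusted p 0.00158). Col24a1, the fibrillar chain that did not pass, had a log2 fold change of 0.32 (adjusted p 0.110, SE 0.15).

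The chains of cartilage collagens had the steepest increases among the fibrillar and FACIT chains, from low levels in WT OB. Col2a1 (chromosome 15, 97975602 to 98004695, minus strand), the chain of type II collagen, had 145, 177 and 342 CPM in the WT OB libraries and 526, 924 and 1826 CPM in null OB. All null libraries were above all WT libraries, with a log2 fold change of 2.37 (adjusted p 2.13e-04, SE 0.31). Col11a2, which joins type II fibrils, had 4.59, 6.37 and 21.6 CPM in WT OB and 22.8, 80.5 and 150 CPM in null OB, a log2 fold change of 3.23 (adjusted p 6.31e-04, SE 0.51). The gap between the groups was narrow for Col11a2, because 1 WT library came close to the lowest null library. The type IX chains, FACIT members on the surface of type II fibrils, followed the same direction with overlapping groups. Col9a1 had 2.35, 4.79 and 14.2 CPM in WT OB and 10.4, 22.9 and 42.5 CPM in null OB (log2 fold change 2.13, adjusted p 0.00399, SE 0.45). Col9a3 had 3.33, 6.61 and 9.82 CPM in WT OB and 7.65, 14.5 and 27.2 CPM in null OB (1.24, adjusted p 0.00597, SE 0.29), and Col9a2 had a log2 fold change of 1.14 that did not pass (adjusted p 0.0814, SE 0.46). Col9a3 shares 234 exon bases with its neighbour Tcfl5, so its counts are uncertain. Col10a1, the type X chain of enlarged cartilage cells, averaged 1.62 CPM in WT OB and 3.16 CPM in null OB and did not pass (adjusted p 0.0532). Types II and IX with Col11a2 made up 0.346% of collagen TPM in WT OB and 1.19% in null OB by the median, and their summed TPM had a null to WT ratio of 5.58. This sum leaves out the other type XI chain, Col11a1, which had means of 77.1 TPM in WT OB and 147 TPM in null OB and changed less.

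In several of these chains 1 library stood apart from the others of its group. The library WT OB 6 was the highest WT library for Col2a1, Col9a1, Col11a1 and Col11a2, and without it the log2 fold changes were 2.59, 2.59, 0.82 and 3.70. Without null OB 1, a high library, they were 2.12, 1.95, 0.72 and 3.00, and all 4 stayed past the threshold in each of the 12 fits that left out 1 library. Of 8 chondrocyte markers that are no collagens, 6 were tested in OB. Of these 4 rose, Acan, Hapln1, Sox9 and Comp, while Cnmd fell by 2.31 on the log2 scale and Matn3 did not pass. Acan, the main proteoglycan of cartilage, had 36.9, 47.5 and 60.7 CPM in WT OB and 92.8, 118 and 154 CPM in null OB (log2 fold change 1.30, SE 0.16). Sox9, the transcription factor of cartilage cells, had 88.9, 113 and 146 CPM in WT OB and 133, 197 and 266 CPM in null OB. The 8 markers summed to between 284 and 576 CPM in the WT libraries, highest in WT OB 6, and to between 551 and 913 CPM in the null libraries, highest in null OB 1. The part of these markers' source cells in the cartilage chain result was not tested.

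**Figure D2:**
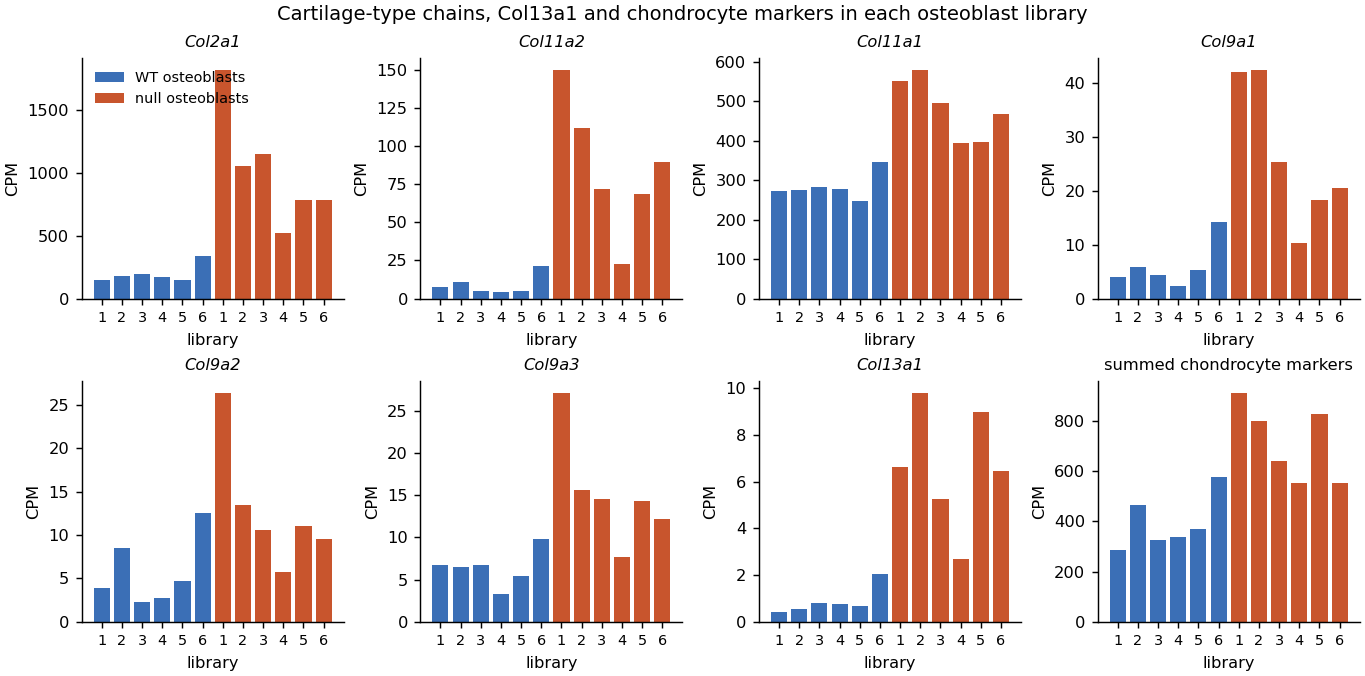
CPM of cartilage-type chains, of Col13a1 and of the summed chondrocyte markers in each OB library, as bars from 0, 6 WT OB and 6 null OB libraries numbered as labelled. The library WT OB 6 is the highest WT library in all 8 panels, and null OB 1 is the highest null library for Col2a1, Col11a2, Col9a2, Col9a3 and the marker sum.

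Col2a1 has 2 main transcripts, of which 1 lacks exon 2, and the exon is shown because the ratio of the transcripts separates the form of cartilage precursors from the form of mature cartilage. The exon (chr15:98000403-98000606, minus strand, GRCm38) has 204 bases, or 68 codons. Col2a1-201 (5104 bases) contains it and Col2a1-202 (4862 bases) does not, and their annotated lengths differ by more than this exon. It is printed in capitals between 20 bases of each neighbouring exon in lower case, followed by the junction that forms without it.
Col2a1-201, exon 2 included: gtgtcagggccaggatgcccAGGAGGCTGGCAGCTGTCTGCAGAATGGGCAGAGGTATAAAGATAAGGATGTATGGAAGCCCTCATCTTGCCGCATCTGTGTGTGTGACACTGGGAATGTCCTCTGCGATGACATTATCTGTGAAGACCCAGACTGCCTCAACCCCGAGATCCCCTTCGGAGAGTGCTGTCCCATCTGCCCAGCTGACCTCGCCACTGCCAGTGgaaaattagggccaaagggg
Col2a1-202, exon 2 skipped: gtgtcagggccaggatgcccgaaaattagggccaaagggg
The transcript without exon 2 held 42.3% to 64.4% of Col2a1 TPM in the WT OB libraries and 61.2% to 74.2% in null OB, with means of 52.5% and 69.4%. The groups overlapped, and the exact permutation p of 0.00433 became 0.0563 when adjusted over the 13 genes whose transcript shares were tested, so this difference did not pass. Without WT OB 5 the adjusted p was 0.0375. For Col9a1, Col9a1-202 held a mean of 88.0% in WT OB and 73.4% in null OB (adjusted p 0.0985), and none of the 13 genes passed. Both Col2a1 transcripts were higher in null OB, with median TPM of 25.9 and 93.6 for Col2a1-201 and 25.7 and 231 for Col2a1-202.

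Of 8 network chains tested 5 rose, with a median log2 fold change of 0.46. Col4a1 and Col4a2, the common chains of basement membranes, are read away from each other from starts that overlap by 22 bases on chromosome 8. Col4a1 had 126, 160 and 222 CPM in WT OB and 186, 221 and 245 CPM in null OB, overlapping, at 0.37 (adjusted p 0.0272, SE 0.12), and this call was lost without WT OB 3, 5 or 6 or without null OB 1 or 3 (adjusted p 0.0514 to 0.0603). Col4a2 had 97.7, 118 and 155 CPM in WT OB and 135, 172 and 184 CPM in null OB, also overlapping, at 0.44 (adjusted p 0.00907, SE 0.11). Col4a5, a chain of kidney and lung basement membranes, had 3.48, 4.20 and 5.61 CPM in WT OB and 6.15, 7.21 and 9.93 CPM in null OB without overlap, at 0.84 (adjusted p 7.70e-04). Col4a4 rose from a mean of 0.361 to 0.891 CPM (adjusted p 0.0161). Col4a3 had a log2 fold change of 0.07 (adjusted p 0.702), but 82.5% of its counts were on Col4a3-204, a transcript of 627 bases that shares 563 exon bases with C430014B12Rik on the opposite strand, so its counts may belong to that gene. Col8a1, a short network chain of vessel walls and the most abundant network chain here, had 1516, 2227 and 2890 CPM in WT OB and 2334, 3142 and 3603 CPM in null OB, overlapping, at 0.48 (adjusted p 0.0207, SE 0.14). Its partner Col8a2 had 85.0, 201 and 287 CPM in WT OB and 87.0, 136 and 174 CPM in null OB, a log2 fold change of -0.55 that did not pass (adjusted p 0.127, SE 0.26). Without WT OB 1 it passed as lower, at -0.71 (adjusted p 0.0147). In the fit of all 36 libraries Col4a1 (adjusted p 0.118), Col4a2 (0.165) and Col8a1 (0.0930) did not pass.

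All 3 beaded-filament chains tested rose, with a median of 0.49. Col6a1 and Col6a2, the short chains of type VI collagen, had log2 fold changes of 0.49 (SE 0.08) and 0.47 (SE 0.09). Col6a1 went from 1426, 1559 and 1809 CPM to 1951, 2286 and 2497 CPM, and Col6a2 from 603, 697 and 861 CPM to 907, 1001 and 1125 CPM. Col6a3 (chromosome 1, 90765923 to 90843971), the long chain that joins them in 1 molecule, rose more, from 206, 233 and 253 CPM to 463, 509 and 546 CPM. Its log2 fold change of 1.13 (SE 0.06) had the smallest adjusted p of all collagen chains in OB, 1.01e-07. No type VI chain overlapped between genotypes. The other beaded chains, Col6a4, Col6a5 and Col6a6, were too low to test.

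Of 9 FACIT chains 5 rose, with a median of 0.71 over the 9. Col12a1, a fibril-surface chain of tendon and bone lining, had 778, 856 and 1069 CPM in WT OB and 1259, 1419 and 1626 CPM in null OB (log2 fold change 0.71, adjusted p 2.07e-05, SE 0.08). Its relative Col14a1 had 34.2, 43.5 and 53.8 CPM in WT OB and 71.5, 78.5 and 91.3 CPM in null OB (0.89, SE 0.11). Col16a1 had 170, 183 and 210 CPM in WT OB and 227, 273 and 305 CPM in null OB (0.51, SE 0.08). These 3 chains had no overlap between genotypes. The type IX chains are given above. Col19a1, Col20a1 and Col22a1, all near or under 1 CPM, had log2 fold changes of 0.15, 0.21 and 0.20 and did not pass.

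The remaining classes hold few chains in these cultures. Col13a1, a transmembrane chain of adhesion sites, had 0.407, 0.718 and 2.06 CPM in WT OB and 2.67, 6.54 and 9.82 CPM in null OB without overlap, a log2 fold change of 2.91 (adjusted p 1.24e-04, SE 0.39) and, without WT OB 6, of 3.38. Col23a1, another transmembrane chain, had 2.62, 3.15 and 5.11 CPM in WT OB and 4.29, 5.30 and 8.18 CPM in null OB (0.68, adjusted p 0.0194), and did not pass in the fit of all 36 libraries (adjusted p 0.165). The multiplexins, basement-membrane proteoglycans whose ends can be cut free, rose in overlapping groups. Col18a1 went from 171, 192 and 327 CPM to 314, 382 and 469 CPM (0.82, adjusted p 0.00258, SE 0.17), and Col15a1 from 26.2, 32.2 and 48.9 CPM to 46.1, 50.1 and 57.5 CPM (0.59, adjusted p 0.00450, SE 0.13). Col28a1 had 17.7, 26.6 and 35.1 CPM in WT OB and 19.2, 24.1 and 27.6 CPM in null OB, with a log2 fold change of -0.16 (adjusted p 0.376). Col7a1, the chain of the anchoring fibrils of skin, had a change of 0.13 that did not pass. Col26a1 passed at 1.00 (adjusted p 0.0122), but 91.2% of its counts were on a retained-intron transcript of 578 bases.

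**Figure D3:**
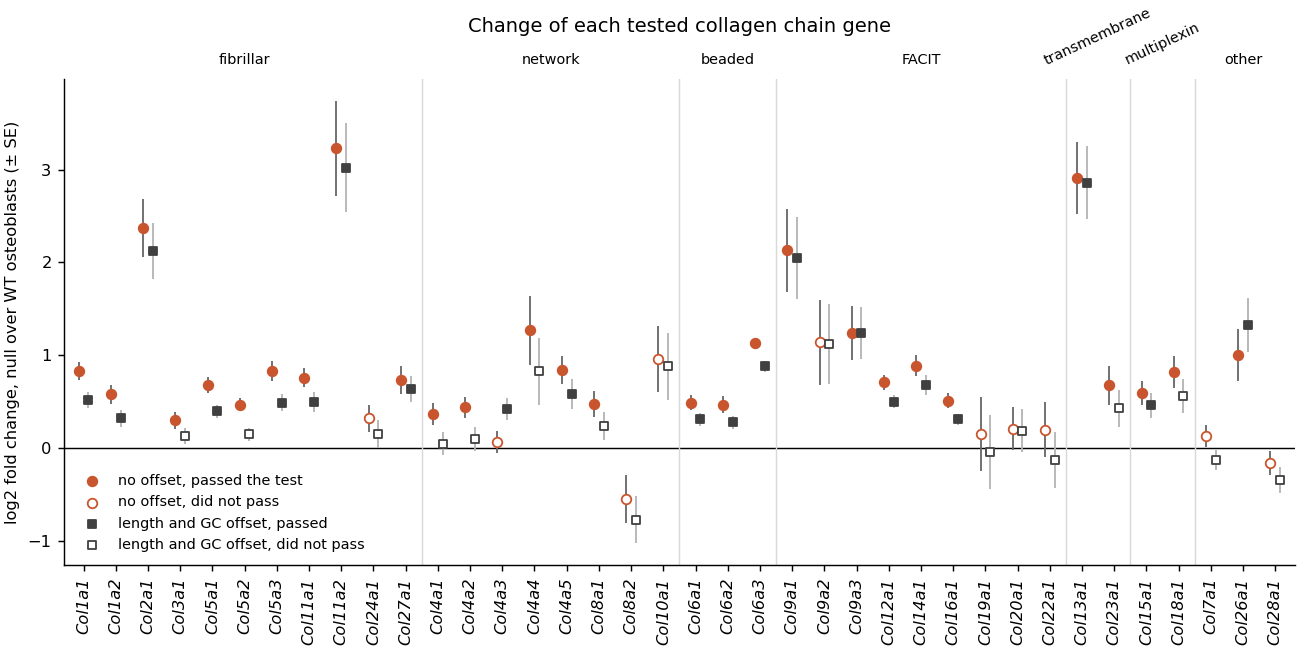
Log2 fold change of each of the 38 tested collagen chains in null OB against WT OB, with its SE, by class, without an offset (circles) and with the offset for transcript length and GC content (squares). Filled symbols passed the threshold and open symbols did not; Col3a1, Col4a1, Col4a2, Col4a4, Col5a2, Col8a1, Col18a1 and Col23a1 are filled only without the offset, and Col4a3 only with it.

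Collagen chains are long transcripts, and in OB long transcripts of all kinds tended to be higher in null libraries. Over all 13607 genes transcript length and log2 fold change had a Spearman correlation of 0.55, a description in which all genes share the same 12 libraries. Genes under 1000 bases had a median log2 fold change of -0.32, genes of 4000 to 5000 bases 0.20, and genes over 7000 bases 0.40. The median length was 4578 bases for the 38 chains and 2452 bases for all genes tested. Among the 38 chains the correlation with length was -0.08. The 13 chains of 4000 to 5000 bases had a median of 0.49 and the 9 chains of 5000 to 6000 bases a median of 0.68, against 0.26 for all genes of the latter length. Measured from the trend of all genes at the same length, 33 of the 38 chains lay above it, by a median of 0.44. The length used is weighted by TPM, so a short transcript with few counts lowers it. Col5a1 was placed at 5498 bases, though 93.7% of its counts in OB were on a transcript of 8406 bases. Col12a1 was placed at 4580 bases (70.2% on 11511 bases), Col6a3 at 5205 (81.1% on 9001) and Col3a1 at 4115 (95.9% on 5564). For such chains this measure and the offset given next may remove too little of the trend.

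When the trend of each library with length and GC content was taken out by an offset, 21 chains rose and none fell, with a median of 0.45, where 7.96% of all genes rose and 8.86% fell. Of these, 20 were among the 28 chains called without the offset. The chains that lost their call were Col3a1, Col4a1, Col4a2, Col4a4, Col5a2, Col8a1, Col18a1 and Col23a1, and Col4a3 gained one. By class, 8 fibrillar, 2 network, 3 beaded, 5 FACIT, 1 transmembrane, 1 multiplexin and 1 other chain rose with the offset. Type I chains kept their calls at smaller size, Col1a1 at 0.52 (adjusted p 9.82e-04, SE 0.09) and Col1a2 at 0.32 (adjusted p 0.0185, SE 0.09). Col6a3 was at 0.88 (SE 0.06) and the cartilage chains moved little, with Col2a1 at 2.12 and Col11a2 at 3.02. Col3a1 was at 0.13 (adjusted p 0.363), Col4a1 at 0.05 (adjusted p 0.852) and Col4a2 at 0.10 (adjusted p 0.648), so for these the difference from WT OB depends on whether the joint offset for length and GC content is used.

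**Figure D4:**
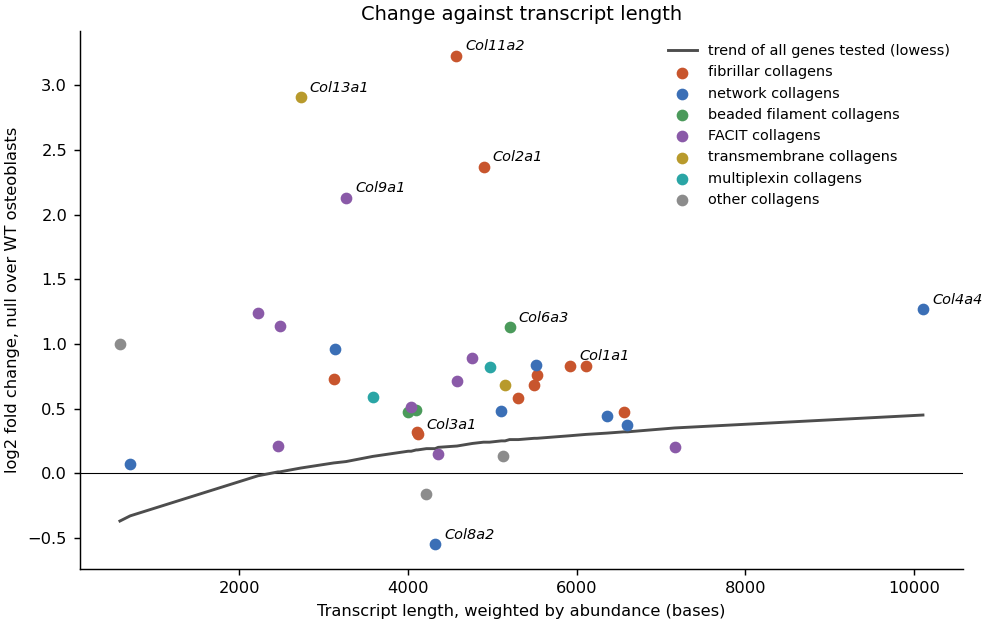
Log2 fold change of the 38 tested collagen chains in null OB against WT OB by transcript length in bases (weighted by abundance), in colour by class, with the lowess trend of all 13607 genes as a line. The line rises with length, and 33 of the 38 chains lie above it.

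Ratios of chains within a library do not depend on library scaling, and 11 were compared between genotypes with an exact permutation test over 6 against 6 libraries, 2-sided, whose smallest possible p is 0.00216. Of these, 3 reached that value (adjusted p 0.00794) and did not overlap. The Col1a1 to Col1a2 ratio in TPM was 2.90 ± 0.160 in WT OB and 3.43 ± 0.138 in null OB (SD, n = 6). The Col3a1 to Col1a1 ratio was 0.447 ± 0.0865 in WT OB and 0.301 ± 0.0241 in null OB. The Col6a3 to Col6a1 ratio was 0.112 ± 0.00595 in WT OB and 0.175 ± 0.0140 in null OB. The Col6a2 to Col6a1 ratio was 0.457 and 0.455, and the Col4a2 to Col4a1 ratio 0.744 and 0.786. The Col8a2 to Col8a1 ratio was 0.114 in WT OB and 0.0545 in null OB, and the Col12a1 to Col14a1 ratio 23.0 and 18.0. Neither of the last pair passed (both adjusted p 0.0857), though without WT OB 1 both did, at adjusted p of 0.0119 and 0.0381.

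Genes that modify, move and fix collagen had smaller median changes in null OB than the 0.68 of the chains. No correction for length was made in this comparison. The chains are long, with a median of 4578 bases against 2452 bases for all genes tested. Measured from the trend with length, their median was 0.44. Of 14 hydroxylation and glycosylation genes 2 rose, with a median log2 fold change of 0.11. These were P3h1, which hydroxylates prolines of type I chains, at 0.24 (adjusted p 0.00254, SE 0.05), and Plod3, a lysine hydroxylase, at 0.18 (adjusted p 0.0381). Of 8 folding and secretion genes 4 rose, among them Mia3, which helps to load collagen into carriers, at 0.33, Fkbp10 at 0.30 and the collagen chaperone Serpinh1 at 0.25, and Ppib, a proline isomerase, fell by 0.21 on the log2 scale. Of 7 processing genes tested 3 rose: Bmp1, which cuts the C-terminal propeptide, at 0.63 (adjusted p 7.79e-04, SE 0.11), Adamts14 at 0.48 and Adamts3 at 0.52. Of 5 crosslinking enzymes Loxl4 (0.67) and Loxl3 (0.34) rose, and Lox had 0.29 (adjusted p 0.0512). Of 9 receptors tested 3 rose, the fibrillar collagen receptor Ddr2 at 0.51, Itga10 at 1.27 and Itga11, and Lair1, an inhibitory receptor of blood cells, fell by 0.48 on the log2 scale. These shares stand beside the 15.5% of all genes that rose.

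Markers of cell types moved in the same comparison. Of 14 osteoblast markers tested that are no collagens, 6 rose and 2 fell (median 0.53), with Phex at 1.86, Runx2 at 0.55 and Smpd3 at 2.57. Phex was low, with means of 0.310 CPM in WT OB and 1.13 CPM in null OB. Omd (means of 120 and 73.1 CPM), Spp1 (8482 and 6713 CPM), Bglap, Bglap2 and Bmp3 had lower means in null OB. The summed level had a median of 24764 CPM in WT OB (16271 to 26576) and 32692 CPM in null OB (18797 to 37344), with overlapping groups. Most of it was Ibsp (means of 13803 and 23003 CPM) and Spp1. Of 12 macrophage markers 8 fell, led by the complement genes C1qa, C1qc and C1qb, and their sum ranged from 5829 to 6826 CPM in WT OB and from 3811 to 4638 CPM in null OB. Of 10 osteoclast markers 5 rose, including Itgb3 at 0.76, Atp6v0d2 at 0.40 and Mmp9 at 0.69. Of 8 fibroblast and stromal markers Pdgfrb and Pdgfra rose and Thy1 fell, with sums of 4411 to 6291 CPM in WT OB and 4296 to 5832 CPM in null OB. Of 6 smooth muscle and pericyte markers Rgs5 rose, and of 4 adipocyte markers tested Lpl rose and 3 fell, among them Pparg and Cebpa. None of the 6 tendon markers and none of the 3 endothelial markers tested passed. Col1a1, Col1a2, Col5a1 and Col6a3 are made by several of these cells, and the part of a shift in cell types in the collagen result was not tested.

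In macrophages, collagen chains were rare, and 18 could be tested. Of these 9 rose and 2 fell in null BMM, where 27.0% of all 11925 genes rose and 25.4% fell, 52.3% in all. The median log2 fold change of the 18 was 0.68, against 0.02 for all genes. In 6 chains every null library was above every WT library, where 15.0% of all genes were. In 1 every null library was below, and the share of all genes in that direction was not counted. Col1a1 had 6.79, 14.5 and 22.9 CPM as the lowest, median and highest of the WT BMM libraries and 35.0, 53.3 and 105 CPM in null BMM, with no overlap and a log2 fold change of 2.05 (adjusted p 3.28e-04, SE 0.35). Col1a2 had 0.290, 1.30 and 2.99 CPM in WT BMM and 14.0, 15.4 and 21.4 CPM in null BMM (3.35, SE 0.35). Even so, these null levels are far under those of the OB libraries, where the lowest Col1a1 value was 31268 CPM. Col3a1 (2.66), Col5a1 (2.46), Col5a2 (3.67) and Col6a1 (2.47) rose with them from means under 1 CPM in WT BMM.

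Other chains of the macrophage cultures belong to basement membranes or fibril surfaces. Col18a1 had 23.3, 27.8 and 35.6 CPM in WT BMM and 64.7, 78.8 and 102 CPM in null BMM, without overlap (log2 fold change 1.50, adjusted p 6.66e-08, SE 0.13). Col19a1, a FACIT chain known from muscle and neurons, had 0.0476, 0.123 and 0.515 CPM in WT BMM and 4.41, 7.30 and 10.6 CPM in null BMM, also without overlap (5.03, adjusted p 6.08e-08, SE 0.41). Col4a4 was the chain with every null library lower, with 1.26, 2.07 and 2.66 CPM in WT BMM and 0.268, 0.354 and 1.06 CPM in null BMM (-2.11, SE 0.34). Col4a5 (-0.82, adjusted p 0.0427) and the uncertain Col4a3 (0.38, adjusted p 0.0479) passed narrowly, and each lost its call in 7 of the 12 fits that left out 1 library, with adjusted p up to 0.0882 for Col4a5 without WT BMM 1 and up to 0.119 for Col4a3 without WT BMM 3. Markers of stromal cells moved in part. The 6 smooth muscle and pericyte markers summed to 2.75 to 4.54 CPM in WT BMM and 24.9 to 32.3 CPM in null BMM. Most of this was Acta2 (means of 1.85 and 20.5 CPM). Cnn1 (0.177 and 3.08 CPM) and Tagln (1.20 and 3.14 CPM) were also higher, while Myh11, Rgs5 and Mcam had means of 0.0724, 0.155 and 0.293 CPM in null BMM. The 5 crosslinking enzymes, a list that marks no cell type, summed to 17.8 to 22.2 and 91.2 to 140 CPM. Most of that difference was Lox (means of 0.623 and 89.3 CPM), while Loxl3 had 17.2 and 19.1 CPM. The 8 fibroblast and stromal markers summed to 602 to 708 and 370 to 787 CPM, but most of this was Vim (means of 628 and 467 CPM). Of the others, Dcn (0 and 1.37 CPM) and Pdgfrb (0.0563 and 1.14 CPM) were higher in null BMM, and Fap (0.297 and 0.124 CPM) was lower. The part of stromal cells in the collagen levels of null BMM was not tested.

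In the RANK-L cultures 18 chains were tested, of which 8 rose and 6 fell in the libraries labelled null OC. Of all 12121 genes 32.4% rose and 33.1% fell, 65.6% in all, so the share of chains called is near that of genes at large. The median log2 fold change of the 18 was 0.04, and of all genes -0.03. All 5 fibrillar chains of types I, III and V that were tested rose, and of the 5 network chains of type IV tested 4 fell. Classes held calls in both directions: the fibrillar chain Col27a1 and the multiplexin Col15a1 fell, while the network chain Col8a1 and the multiplexin Col18a1 rose. In 7 chains every null library was above every WT library, against 21.7% of all genes. In 6 every null library was below, and the share of all genes in that direction was not counted.

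Each of the 6 chains that fell in the libraries labelled null OC had also risen in WT OC against WT BMM, a comparison that shares the WT OC libraries. Col4a1 had 21.4, 23.7 and 26.1 CPM in WT OC and 0, 1.81 and 3.30 CPM in null OC (log2 fold change -3.84, adjusted p 1.03e-07, SE 0.35). Col4a2 had 33.0, 39.3 and 44.5 CPM in WT OC and 0.759, 1.53 and 5.78 CPM in null OC (-4.06, SE 0.35). Col4a5 had 29.3, 31.4 and 37.0 CPM in WT OC and 0, 2.00 and 3.71 CPM in null OC (-3.87, SE 0.34). Col4a4 fell by 3.34 on the log2 scale, from 1.94, 3.35 and 4.17 CPM to 0, 0.312 and 0.599 CPM. Col15a1 had 6.20, 8.08 and 11.5 CPM in WT OC and 0.50, 0.884 and 1.64 CPM in null OC (-2.99), and Col27a1 had 4.84, 5.52 and 7.12 CPM in WT OC and 0.50, 0.822 and 0.873 CPM in null OC (-2.92). None of these 6 chains overlapped between genotypes. Col4a6, which was not tested, had up to 28 counts per library in WT OC and at most 1 count in null OC, at least 5.86-fold lower against a floor of 3 counts per library. The same libraries lack the osteoclast markers, with 10 of 10 lower in null OC.

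The tested chains of types I, III and V, Col1a1, Col1a2, Col3a1, Col5a1 and Col5a2, were higher in the libraries labelled null OC, and each of them had also risen in null BMM. Col1a1 had 7.5, 7.90 and 9.61 CPM in WT OC and 44.3, 73.2 and 181 CPM in null OC, without overlap (log2 fold change 3.37, adjusted p 4.13e-07, SE 0.31). Col1a2 had 0.0444, 0.133 and 0.720 CPM in WT OC and 6.40, 13.7 and 42.7 CPM in null OC (6.28, SE 0.65, and 7.10 without WT OC 5). Col3a1 had 0, 0.0741 and 0.263 CPM in WT OC and 1.38, 4.31 and 24.9 CPM in null OC (6.15, SE 0.86, and 5.32 without null OC 6). Col5a2 had at most 2 counts in any WT OC library and 2.70, 5.01 and 6.09 CPM in null OC, at least 31.1-fold higher against the floor of 3 counts. Col5a1 had a log2 fold change of 2.55 with overlapping groups, and of 1.71 without null OC 6 (adjusted p 0.00493). Col12a1, with at most 1 count per WT OC library and a mean of 1.52 CPM in null OC, was at least 10.1-fold higher and was not tested. Col8a1 rose by 5.14, from at most 4 counts per WT OC library. Col19a1 rose by 2.38 (SE 0.24), from 0.720, 1.72 and 2.23 CPM to 5.19, 8.81 and 10.9 CPM, and Col18a1 by 0.40 (SE 0.06), from 77.4, 83.5 and 89.9 CPM to 99.4, 109 and 119 CPM. The 6 smooth muscle and pericyte markers summed to 1.79 to 2.88 CPM in WT OC and 15.6 to 38.8 CPM in null OC. The 8 fibroblast and stromal markers summed to 1314 to 1434 and 457 to 662 CPM, but most of this was Vim (means of 1277 and 511 CPM). S100a4 (97.4 and 57.2 CPM) was also lower in null OC, while Dcn (0.106 and 2.91 CPM) and Lum (0.0175 and 0.513 CPM) were higher. The part of cells with such markers in the collagen levels of null OC was not tested.

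**Figure D5:**
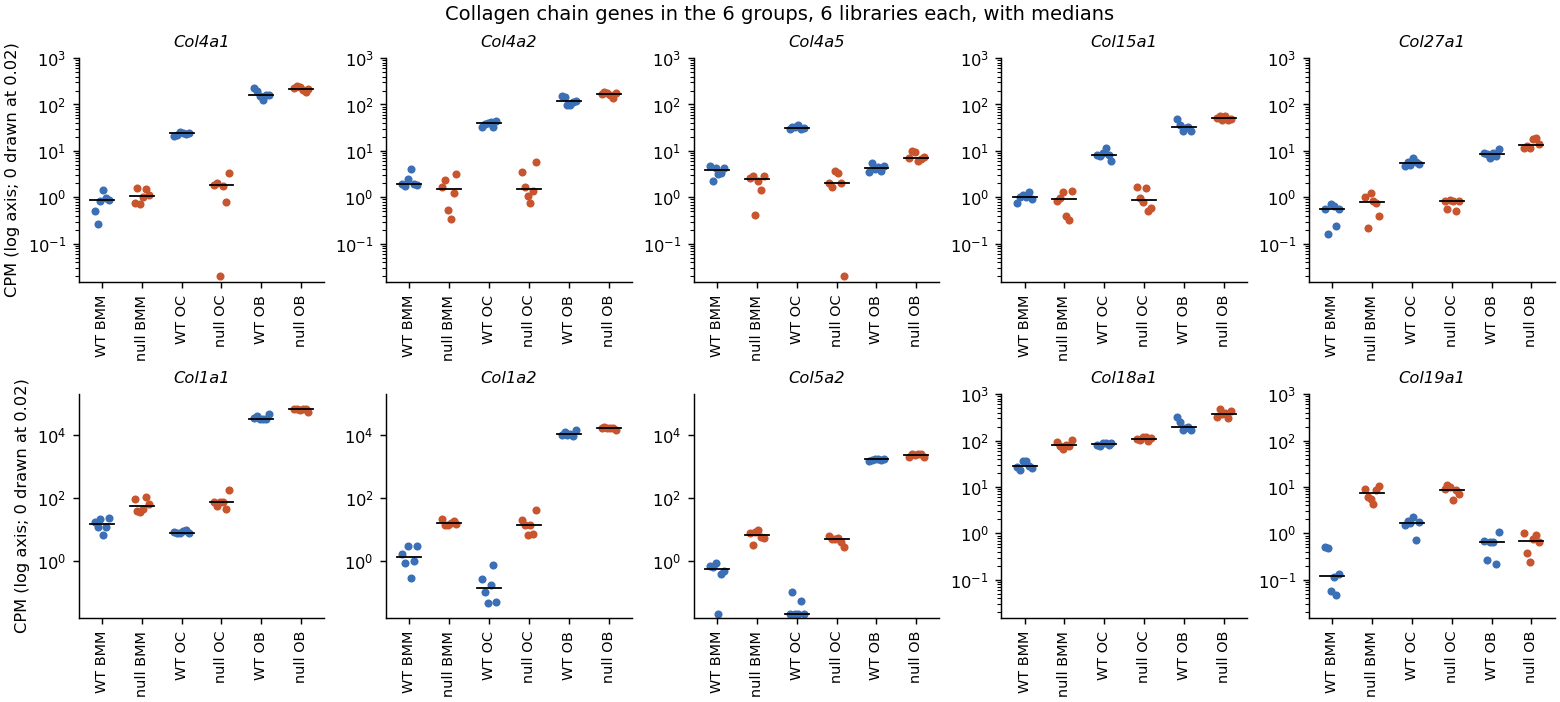
CPM on a log axis of 10 collagen chains in the 6 groups, each point 1 library (blue WT, orange null), with a bar at the median of 6 libraries and counts of 0 drawn near the foot of the axis. The upper panels show chains that are high in WT OC and at the level of BMM in the libraries labelled null OC, for example Col4a5 at a median of 31.4 against 2.00 CPM; the lower panels show chains that are higher in null BMM and null OC than in their WT groups.

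WT OC was also compared with WT BMM, to see which chains differ with RANK-L in WT cells. Of 16 chains tested in WT OC against WT BMM, 8 rose and 3 fell, where 71.0% of all 12049 genes passed, 35.5% in each direction, so the share of chains called is again near that of genes at large. Col4a1 rose by 4.83 (SE 0.18), Col4a2 by 4.04 (SE 0.17), Col27a1 by 3.53 (SE 0.23), Col4a5 by 3.09 (SE 0.13), Col15a1 by 3.03 (SE 0.17), Col19a1 by 2.85, Col18a1 by 1.51 and Col4a4 by 0.69 on the log2 scale. In Col4a1, Col4a2, Col4a5, Col15a1, Col18a1, Col19a1 and Col27a1 every OC library was above every BMM library. The share of all genes without overlap was not counted in this comparison. Col1a1 fell by 0.91, Col1a2 by 2.86 and Col14a1 by 1.82 on the log2 scale, with overlapping groups.

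Against WT BMM, WT OB was higher in 31 of 36 chains tested and lower in 3, where 42.9% of all 13373 genes were higher and 38.3% lower, 81.2% in all. Against WT OC it was higher in 32 of 37 and lower in 5, where 45.1% of 13462 genes were higher and 38.2% lower, 83.3% in all. The chains lower in OB than in OC were Col4a5 (-2.83), Col4a4 (-3.11), Col19a1 (-1.38), Col26a1 (-0.90) and Col22a1 (-0.55), and Col4a4, Col22a1 and Col26a1 were also lower in OB than in BMM. Col4a5 is the clearest of these, with a mean of 31.8 CPM in WT OC, 4.33 CPM in WT OB and 3.69 CPM in WT BMM.

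Whether the genotype effect on a chain differed between cultures was tested in a fit of all 36 libraries. Between OB and BMM it differed for 18 of 38 chains, 7 more positive and 11 more negative in OB, where 21.6% of all 14268 genes were more positive and 24.3% more negative in OB, 45.9% in all, a share near that of the chains. Between OB and OC it differed for 23 of 38, 10 more positive and 13 more negative in OB, where 27.8% of all genes were more positive and 27.4% more negative, 55.2% in all. In the separate comparisons type I chains rose in null libraries of all 3 cultures, though in this fit Col1a2 did not pass in OB (adjusted p 0.109). The difference of the effect was -1.21 for Col1a1 and -2.75 for Col1a2 between OB and BMM, and -2.53 and -5.68 between OB and OC. For Col4a1 and Col4a2 the differences between OB and OC were 4.22 and 4.52, where in the separate comparisons both rose in null OB and fell in the libraries labelled null OC; in this fit neither passed in OB. Col18a1 rose in null libraries of all 3 cultures in the separate comparisons, with a larger effect in BMM (difference -0.66, adjusted p 0.00326) and a smaller one in OC (0.44, adjusted p 0.0377) than in OB.

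Because the null mice lack miR-324, the collagen transcripts were searched for matches to its seed, the bases 2 to 8 with which a microRNA pairs to its targets. Both mature forms are shown from RefSeq (GRCm38.p6, chr11:70012060-70012082 and chr11:70012095-70012114, plus strand) with the seed in capitals.
mmu-miR-324-5p: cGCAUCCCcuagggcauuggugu
mmu-miR-324-3p: cCACUGCCccaggugcugcu
The match to the miR-324-5p seed, GGGATGC, was found in the longest annotated 3′ UTR of 3 of 38 chains tested in OB (7.9%), against 9.7% of 13236 genes tested with a UTR. The match to the miR-324-3p seed, GGCAGTG, was also found in 3 of 38, against 17.9% of genes. The median UTR was 1032 bases in the chains and 1380 bases in all genes. The 3 chains with a miR-324-5p match, each of which rose in null OB, are shown with the match in capitals between its neighbouring bases (GRCm38, chr1:82451700-82451729 minus, chr16:57626199-57626228 minus and chr11:51580145-51580174 plus).
Col4a4: gctatcaagttgGGGATGCctacaaaccac
Col8a1: agatgctagcctGGGATGCagggcagagcc
Col23a1: gaacttctttatGGGATGCgccaactgtgg
Their median log2 fold change was 0.68, the same as the 0.68 of the 35 chains without a match, and all 3 lost their call with that offset. The chains with a miR-324-3p match were Col7a1, Col12a1, which has 2 matches, and Col16a1, with a median of 0.51 against 0.68 for the 35 without. The stretch around the Col16a1 match spans exons of Col16a1-209, a transcript annotated for nonsense-mediated decay. That transcript held a mean of 12.9% of Col16a1 TPM in WT OB and 13.1% in null OB. The matches of Col12a1 (chr9:79600965-79600994 and chr9:79599822-79599851, minus) are shown as those of the chain with a miR-324-3p match and the largest change, 0.71.
Col12a1, first match: gaatgacacaagGGCAGTGgtgtccgcctg
Col12a1, other match: gcccaggccctgGGCAGTGaacctgaaatc
The chains with the largest changes in OB, Col11a2, Col13a1, Col2a1 and Col9a1, held neither match. A match of letters is no measure of binding.

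Promoter windows from RefSeq, of 250 bases before to 50 bases after a start (GRCm38.p6), matched 35 of the 44 chains with 38 windows. On either strand, the GC box letters GGGCGG were in 60.5% of the chains' windows and 35.7% of all 32851, CCAAT in 34.2% and 37.4%, and TATAAA in 13.2% and 13.6%. A core of the SOX motif, AACAAT, was in 2.6% and 10.7%. None of these motifs contains another. The window of Col4a2 (chr8:11312555-11312854, plus strand) is shown because it also holds the start of Col4a1, and both chains rose in null OB, rose in WT OC against WT BMM and fell in the libraries labelled null OC. GGGCGG and CCAAT on either strand are in capitals.
Col4a2 and Col4a1: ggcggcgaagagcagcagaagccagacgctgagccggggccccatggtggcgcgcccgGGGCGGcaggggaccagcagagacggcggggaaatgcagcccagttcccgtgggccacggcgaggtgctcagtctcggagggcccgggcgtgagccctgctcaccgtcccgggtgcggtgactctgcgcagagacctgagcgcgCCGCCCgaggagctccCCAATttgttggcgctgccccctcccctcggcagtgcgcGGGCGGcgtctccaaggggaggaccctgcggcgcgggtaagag
Col4a3 and Col4a4 also start head to head, 72 bases apart on chromosome 1, and Col4a5 and Col4a6 start 1309 bases apart on chromosome X. In WT OC the means were 31.8 CPM for Col4a5 and 1.02 CPM for Col4a6, and both were lower in the libraries labelled null OC. The window of Col11a2 (chr17:34038888-34039187, plus strand), the chain with the largest change in OB, is shown with TATAAA and GGGCGG on either strand in capitals.
Col11a2: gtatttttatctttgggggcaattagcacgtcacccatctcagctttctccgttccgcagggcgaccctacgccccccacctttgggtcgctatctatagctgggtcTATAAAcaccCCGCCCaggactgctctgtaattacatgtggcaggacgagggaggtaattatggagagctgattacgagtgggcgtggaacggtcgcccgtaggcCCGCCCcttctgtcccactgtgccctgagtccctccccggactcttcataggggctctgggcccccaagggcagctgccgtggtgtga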

How the data were processed

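RNA was taken from 36 cultures, and libraries were made with a low-input RNA kit, per the labels' protocols. The estimated counts and the TPM values per transcript were deposited by the authors, per the file headers. The submitters' processing notes name kallisto, DESeq2 and the build GRCh38, a human build named for mouse samples. The transcript annotation release is not given in the sources used here. Of 88198 transcripts, 97.5% matched GENCODE M21 (GRCm38) by identifier, 88.9% of these with the annotated length, and the unmatched ones held 0.63% to 0.97% of the counts of a library. Effective lengths in the deposited tables fell short of transcript lengths by up to 199 bases, and TPM carries no depth. Use of strand in the counting is not stated in the labels, so overlapping genes are uncertain.

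Counts were summed per gene, rounded to whole numbers, filtered with filterByExpr and scaled with TMM. They were tested with the quasi-likelihood test of edgeR 4.0.16 (R 4.3.3, limma 3.58.1) with a mean per group, on the 12 libraries of a comparison or, for differences of effects, on all 36. The threshold was 0.05 after Benjamini-Hochberg adjustment, taken over every gene in the fit. Ratios and transcript shares were tested by exact permutation with scipy 1.17.1 (Python 3.11.15, pandas 2.3.3). The fits were tested on simulated counts. Folds against a group with at most 3 counts in every library use 3 counts per library as a floor, which covers counting error only. Alternatives were RLE scaling, DESeq2 1.42.0, limma-voom, no filter, a filter of 10 counts on the mean, the replicate block, offsets for length or for length and GC content (lowess span 0.3), a fit of all 36 libraries and leaving out each library. The labels give no batch.

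A chain is described with its own values where it had a mean of at least 10 CPM in OB, or passed a genotype comparison with at least 1 CPM in a group. Col4a4 in OB, Col4a6, Col10a1, Col12a1 in OC and the low FACIT chains were named beside them to account for all chains. Of each other list up to 3 genes with the smallest p in OB are named. Comp, Sox9, Matn3, Ppib and Itga11 were added after their values were seen. So were Omd, Bglap, Bglap2, Bmp3, Ibsp, Spp1, Vim, S100a4, Dcn, Lum and Fap. Endothelial, neutrophil and lymphocyte lists gave no call in OB among 3, 1 and 1 genes tested. The members and lists were chosen with earlier results of these data known. Sequences are from RefSeq or from the GRCm38 genome and GENCODE M21.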

Additional observations from a re-analysis of the deposited data

Results flagged for a closer look

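Of 112 sets of 6 libraries (a chain in a group), 12 held a library set apart from the other 5 by a gap of more than 0.625 of the whole range, and chance alone gives about 1 in 20. In WT OB the library WT OB 6 was the highest for 5 chains, at 342 CPM of Col2a1 (next 197), 14.2 of Col9a1 (next 5.88), 346 of Col11a1 (next 282), 21.6 of Col11a2 (next 10.6) and 2.06 of Col13a1 (next 0.819). The summed chondrocyte markers were also highest among the WT libraries in WT OB 6, at 576 CPM, and their part was not tested. The library null OC 6 was the highest for 3 fibrillar chains, at 181 CPM of Col1a1 (next 76.7), 24.9 of Col3a1 (next 8.23) and 11.3 of Col5a1 (next 3.19). The other 4 were Col1a2 in null OB 6, the lowest at 14721 CPM (next 16878), Col6a1 in WT BMM 6 at 0.872 CPM, Col4a4 in null BMM 1 at 1.06 CPM and Col1a2 in WT OC 5 at 0.720 CPM.

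The genotype effect differed between OB and BMM for 18 of 38 chains by the edgeR test of the difference, where 45.9% of all genes differed. The differences of log2 fold changes (OB minus BMM) included -1.21 for Col1a1, -2.75 for Col1a2, -2.34 for Col3a1, 3.40 for Col4a4, 1.68 for Col4a5, -3.19 for Col5a2, -2.42 for Col8a1, 0.85 for Col15a1, -0.66 for Col18a1 and -4.86 for Col19a1. Between OB and OC it differed for 23 of 38 chains, where 55.2% of all genes differed. The differences (OB minus OC) included -2.53 for Col1a1, -5.68 for Col1a2, -5.81 for Col3a1, 4.22 for Col4a1, 4.52 for Col4a2, 4.63 for Col4a4, 4.73 for Col4a5, -1.79 for Col5a1, -6.78 for Col5a2, -4.63 for Col8a1, 3.56 for Col15a1, 0.44 for Col18a1, -2.22 for Col19a1 and 3.67 for Col27a1. The Col5a2 value rests on WT OC libraries with at most 2 counts.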

How the results depend on the processing

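The count of 28 chains higher in null OB was 27 to 29 when 1 library was left out and 21 to 30 over all other settings, with the lowest value for the offset for length and GC content; a fit of all 36 libraries gave 22. In BMM the 11 calls became 17 in the fit of all 36 libraries (14 higher, 3 lower), and 10 to 13 without 1 library. In OC the 14 calls became 23 without a filter (16 higher, 7 lower) and 22 in the fit of all 36 libraries (15 higher, 7 lower). In WT OC against WT BMM the 11 calls became 20 without a filter (9 higher, 11 lower). The 3 ratios past the threshold became 5 with the length and GC offset, adding Col5a2 to Col5a1 and Col4a5 to Col4a1, and 3 to 5 without 1 library. Of transcript shares 0 to 3 passed without 1 library. Signs near 0 turned: Col4a3 in OB was 0.07 and ran from -0.01 (without WT OB 3) to 0.15 without 1 library, the log2 Col6a2 to Col6a1 ratio ran from -0.02 to 0.02 without 1 library, and the leading transcript shares (in points) of Col6a3 from -1.1 to 0.3, Col11a1 from -0.5 to 1.5 and Col16a1 from -0.8 to 0.4. The Col9a3 share was -6.4 with estimated counts against 4.46 in TPM, and the summed other chains -0.04 in CPM (log2). The cause was not tested. Same-numbered WT and null OB libraries correlated by -0.16 to 0.17, and 2 of 6 correlated best with their own number. Same-numbered WT OC and WT BMM libraries correlated by -0.07 to 0.12. Such low values cannot show whether the numbers pair samples, and the labels do not say. With the replicate block 28 chains passed in OB, 9 in BMM and 14 in OC. The BMM calls of Col4a3 (adjusted p 0.0897) and Col4a5 (0.0636) were lost with it. In BMM most chains had too few counts to test, at library totals in the range of those of OB.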
